A study of Mus musculus with 38 samples.

Results

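The 10 genes described here are widely used markers of macrophages, namely *Cd68*, *Adgre1*, *Csf1r*, *Lyz2*, *Fcgr2b*, *Itgax*, *Msr1*, *Mrc1*, *Cd163* and *C1qa*. They were picked by gene symbol out of the 19938 genes that the array annotation named. No cut on a measured value was used, but earlier results of these data were known when they were chosen. Each had exactly 1 probe set (a group of array probes read as 1 value) with a single gene symbol, so all 10 were measured. RNA came from a part of the thyroid gland of 38 mice, with 1 array per mouse, and histology was read on the remainder of the gland. The FVB/N transgenic mice carried a human *BRAF* cDNA with the V600E mutation under the bovine thyroglobulin promoter, which is active in thyroid follicular cells, and *BRAF*(+) mice are those in which RNA of the transgene was found. *BRAF*(-) mice had no such RNA, and 1 of them, a BHL mouse aged 24 months, was genotyped as transgenic.

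The groups were 10 papillary thyroid carcinomas (PTC), 10 borderline lesions (BL), 4 benign hyperplastic lesions (BHL) and 5 asymptomatic thyroids (AT) of *BRAF*(+) mice, and 4 BHL and 5 AT of *BRAF*(-) mice. Median age was between 10 months (*BRAF*(+) AT) and 11.5 months (*BRAF*(-) BHL), and single mice were 4 to 24 months old. These ages are those of the labels, and the age classes printed in the paper differ for PTC and BL. The mice came from transgenic lines that differed in BRAFV600E protein, and line was not part of the fits. There were 29 females and 9 males. PTC, BL, *BRAF*(+) BHL, *BRAF*(-) BHL, *BRAF*(+) AT and *BRAF*(-) AT held 2, 2, 1, 1, 1 and 2 males. Values are log2 signals after robust multiarray averaging (RMA), so that differences are on a log2 scale. A signal cannot be set against that of another gene, because each probe set binds with its own strength. Differences were tested with limma, a linear model fitted to every probe set with sex as a covariate, and p-values were adjusted by Benjamini and Hochberg's method over all 35556 probe sets with a threshold of 0.05.

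Macrophages are phagocytes of the myeloid lineage that either settle in tissues before birth or arise from blood monocytes. Their survival rests on CSF1 or IL34 acting through the receptor CSF1R, and their identity on the transcription factor PU.1. In the thyroid they lie between the follicles and around vessels, and macrophages of tumours are known to take on mixed programmes in which scavenger receptors, antigen presentation genes and growth factors are expressed together. None of the markers is absolutely restricted to macrophages. *Itgax* is also a dendritic cell gene, *Fcgr2b* a B cell gene and *Lyz2* a gene of neutrophils and monocytes.

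Thyroid genes were read in every gland. *Tg*, which encodes thyroglobulin, was at 13.30 to 13.74 over the 38 mice, near the top of the array scale, where a narrow range says little. *Pax8*, a thyroid transcription factor, was at 11.00 to 11.88, while *Slc5a5*, the iodide transporter, ran from 7.87 to 11.74 and *Dio1*, a thyroid hormone deiodinase, from 6.77 to 11.62. Array medians ran from 6.00 to 6.15 and the correlation between arrays from 0.944 to 0.991. Lists of other cell types varied between mice, since skeletal muscle, parathyroid, brown fat and lymphocyte genes were high in some glands and low in others. Scores of these lists (the mean over their genes of the deviation from each gene's mean over all mice) are given below beside the results with which they move. The neutrophil score was 0.998 in *BRAF*(+) BHL mouse M_958 and at most 0.23 in every other mouse.

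*Fcgr2b*, the inhibitory Fc receptor for IgG, and *Itgax*, the CD11c subunit of complement receptor integrins, were the members that differed most between *BRAF*(+) and *BRAF*(-) thyroids. *Cd68*, which encodes a lysosomal membrane glycoprotein, differed less and *Cd163*, the haemoglobin-haptoglobin scavenger receptor, least. The bases just before the annotated starts of these 4 genes are printed to show how their promoters differ in motifs bound by myeloid factors. Capitals mark matches, on either strand, to GGAAGT, the core recognised by PU.1 and other ETS factors, and to TGACTCA, the site of AP-1. The RefSeq gene records of *Itgax* and *Cd163* begin inside the printed stretch, near its end. The sequences are those of RefSeq on GRCm38.p6, read 5′ to 3′ on the strand of the gene.
Fcgr2b, chr1:170976072-170976201, minus strand: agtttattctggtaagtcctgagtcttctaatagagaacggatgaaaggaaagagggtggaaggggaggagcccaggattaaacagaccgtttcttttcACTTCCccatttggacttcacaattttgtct
Itgax, chr7:128129420-128129549, plus strand: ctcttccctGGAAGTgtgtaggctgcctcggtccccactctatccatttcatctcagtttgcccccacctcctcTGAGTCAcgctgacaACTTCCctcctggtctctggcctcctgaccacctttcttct
Cd68, chr11:69666171-69666300, minus strand: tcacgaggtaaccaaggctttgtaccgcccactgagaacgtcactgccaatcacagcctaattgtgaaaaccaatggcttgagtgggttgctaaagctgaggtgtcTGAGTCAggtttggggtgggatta
Cd163, chr6:124304521-124304650, plus strand: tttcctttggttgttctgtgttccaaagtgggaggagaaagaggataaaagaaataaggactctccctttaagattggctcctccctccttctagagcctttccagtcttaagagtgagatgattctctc

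*Itgax* held 2 matches to GGAAGT, 121 and 41 bases before the start, with a TGACTCA match 56 bases before it. *Fcgr2b* had a single GGAAGT match, 31 bases before the start. *Cd68* had TGACTCA matches 149 and 24 bases before its start, the nearer of which is in the printed stretch. It also had a GGAAGT match at base 12 counted from the start on, outside the printed stretch. Windows of 300 bases around the start (250 before it and 50 after) were given for 6 of the 10 members, which adds *Mrc1* and *Lyz2* to the genes printed. A GGAAGT match was found in 5 of these 6 windows, with *Cd163* as the exception, against 23.8% of the 32851 promoters of the table. TGACTCA was found in 2 of the 6 windows, against 5.2% of all promoters, and the longer ETS form AGGAAGT in those of *Mrc1* and *Lyz2*, against 9.35%. The search for AGGAAGT overlaps that for GGAAGT. A match describes letters only.

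Without a visible lesion to separate them, *BRAF*(+) AT can be set against *BRAF*(-) AT. *Fcgr2b* was at 8.33, 7.97, 8.79, 9.59 and 9.52 in *BRAF*(+) AT, against 6.90, 6.98, 7.40, 7.90 and 7.84 in *BRAF*(-) AT. Every *BRAF*(+) value lay above every *BRAF*(-) value, although the nearest pair was only 7.97 against 7.90. Such a lack of overlap was found in 1.14% of all probe sets. The log2 difference was 1.43 (standard error 0.30), a ratio of 2.70, with an adjusted p of 0.017 in limma. *Fcgr2b* was the 1 member of 10 past the threshold here, where 0.222% of all probe sets were higher in *BRAF*(+) AT. It missed the threshold among females (1.25, adjusted p = 0.065) and with muscle and fat scores as covariates (1.27, adjusted p = 0.055). *Itgax* was at 6.85, 6.16, 7.51, 7.88 and 8.33 in *BRAF*(+) AT, against 5.34, 5.12, 6.46, 6.09 and 6.30 in *BRAF*(-) AT. Its difference of 1.503 (standard error 0.37) was as large as that of *Fcgr2b*, but the groups overlapped and the adjusted p was 0.075. The remaining members differed by -0.03 (*Msr1*, whose sign turned under some alternatives) to 0.84 (*Cd68*), with adjusted p from 0.196 to 0.988. The call of *Fcgr2b* was lost when any of 4 mice was left out, the *BRAF*(+) AT mice M_948 and M_1003 and the *BRAF*(-) AT mice M_524 and M_771, although the difference stayed at 1.25 or above (adjusted p = 0.058 to 0.107). Without *BRAF*(+) AT mouse M_779 *Itgax* (1.79, adjusted p = 0.013) and *Lyz2* (0.98, adjusted p = 0.024) passed as well, and without mouse M_523 *Itgax* did (1.68, adjusted p = 0.048).

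**Figure D1:**
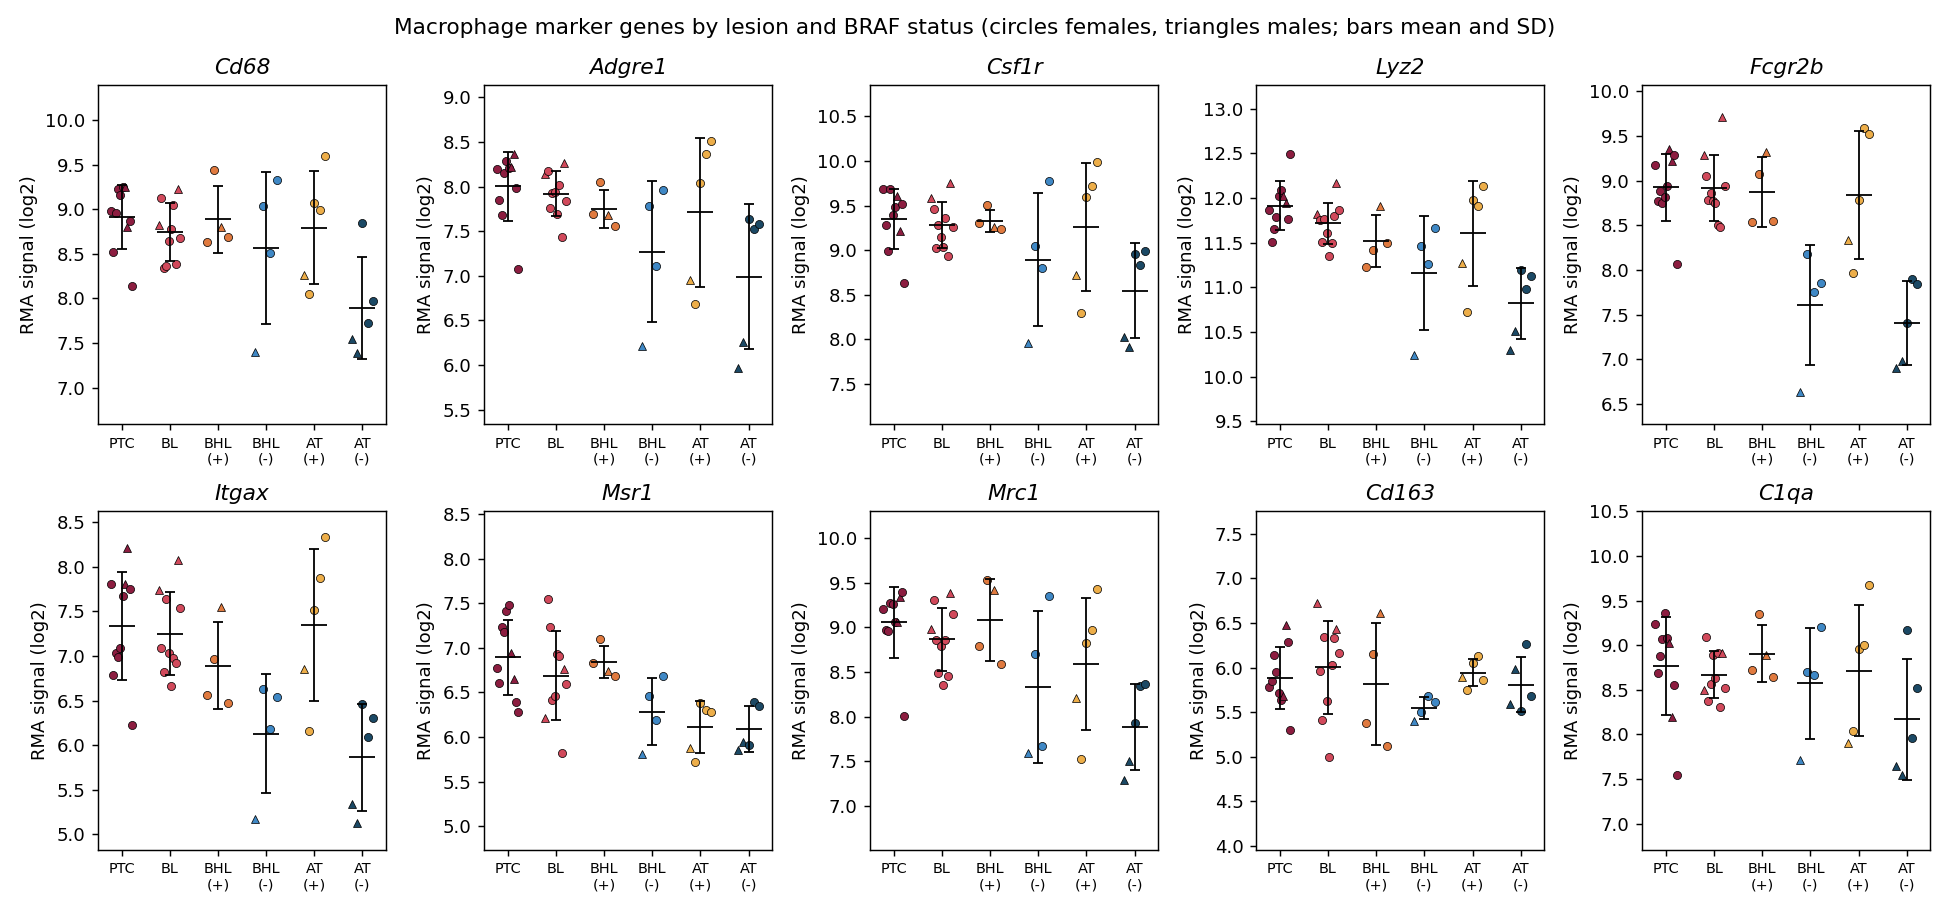
Log2 RMA signal of each of the 10 macrophage marker genes in every mouse, by lesion and *BRAF* status (PTC, BL, BHL *BRAF*(+), BHL *BRAF*(-), AT *BRAF*(+), AT *BRAF*(-)). Circles are females, triangles males, horizontal lines means and bars SD; *Fcgr2b* averaged 8.84 to 8.92 in the *BRAF*(+) groups, against 7.61 and 7.40 in BHL and AT of *BRAF*(-) mice.

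The same contrast within benign hyperplasia gave the same single call. *Fcgr2b* was at 8.54, 9.08, 9.32 and 8.55 in *BRAF*(+) BHL, against 6.63, 8.18, 7.76 and 7.85 in *BRAF*(-) BHL, and the groups did not overlap (higher without overlap in 5.16% of all probe sets). The log2 difference was 1.27 (standard error 0.33, adjusted p = 0.014), and 2.98% of all probe sets were higher by the test. The call was lost among females (0.79, adjusted p = 0.136) and with muscle and fat scores as covariates (1.41, adjusted p = 0.135). The difference was 0.90 (adjusted p = 0.104) without *BRAF*(-) BHL mouse M_701 and 1.10 (adjusted p = 0.060) without *BRAF*(+) BHL mouse M_958, the mouse with the neutrophil score of 0.998. *Msr1*, a class A scavenger receptor that takes up modified lipoproteins, was at 6.83, 7.10, 6.74 and 6.69 in *BRAF*(+) BHL, against 5.81, 6.46, 6.19 and 6.68 in *BRAF*(-) BHL. These groups just failed to touch, and the difference of 0.55 (standard error 0.26) had an adjusted p of 0.229. The other 8 members differed by 0.27 to 0.76, with adjusted p from 0.226 to 0.642. Among females the sign turned for *Cd68* (-0.04), *Cd163* (-0.05) and *Lyz2* (-0.09), as it did for *Cd68* (-0.04) without mouse M_701.

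Over the 18 non-malignant thyroids together, with lesion type and sex in the model, all 10 members had a positive difference of *BRAF*(+) over *BRAF*(-) mice. The median over the members was 0.52, beside a median of 0.02 over all probe sets. *Fcgr2b* averaged 8.85 ± 0.56 in *BRAF*(+) and 7.49 ± 0.54 in *BRAF*(-) mice (SD, n = 9 each), a log2 difference of 1.30 (standard error 0.22, adjusted p = 0.0028), and 8 of the 9 *BRAF*(+) mice lay above all *BRAF*(-) mice. *Itgax* averaged 7.14 ± 0.72 in *BRAF*(+) and 5.98 ± 0.60 in *BRAF*(-) mice (SD, n = 9 each), a log2 difference of 1.09 (standard error 0.27, adjusted p = 0.030), with 6 *BRAF*(+) mice above all *BRAF*(-) mice. These were the 2 members past the threshold, where 2.19% of all probe sets were higher. In bulk tissue, fewer cells of a type and less RNA per cell cannot be told apart.

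The 8 members not past the threshold had smaller differences. They were 0.67 for *Mrc1*, the mannose receptor, 0.56 for *Cd68*, 0.54 for *Lyz2*, lysozyme M, and 0.50 for *Csf1r*, the CSF1 receptor. *Adgre1*, the adhesion receptor known as the mouse macrophage marker F4/80, differed by 0.49 and *C1qa*, the A chain of complement C1q, by 0.36. *Msr1* and *Cd163* differed by 0.22 and 0.21. At a p under 0.05 before adjustment, 7 of the 10 members would have counted, beside 16.3% of all probe sets, and the 95% confidence intervals of all 10 ended between 0.50 and 1.76. The effect of *BRAF* status depended on lesion type by the test for 0 of 10 members, beside 0.0281% of all probe sets (interaction of -0.61 to 0.60, adjusted p from 0.452 to 0.990), and the intervals of the members reached from -1.75 to 1.27. Before adjustment 1 of 10 members, *Msr1*, was under 0.05 (0.60), beside 8.40% of all probe sets.

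Adipocyte genes differed by *BRAF* status in the same 18 glands, and skeletal muscle genes were high in a pair of them. The skeletal muscle score lay between -0.90 and -0.74 in *BRAF*(+) mice, against 3.48 and 3.74 in *BRAF*(-) mice M_764 and M_940 and -0.94 to -0.38 in the remaining *BRAF*(-) mice. The adipocyte score lay between -0.81 and 0.61 in *BRAF*(+) mice and between 0.15 and 1.19 in *BRAF*(-) mice. With muscle, fat and brown fat scores as covariates, the differences were 1.42 for *Fcgr2b* (adjusted p = 0.196) and 1.79 for *Itgax* (adjusted p = 0.116), so that neither passed, while 10 of all probe sets were called against 1458 before. Among females alone *Fcgr2b* stayed past the threshold at 1.04 (adjusted p = 0.036) and *Itgax*, at 0.74 (adjusted p = 0.275), did not. *Fcgr2b* passed whichever mouse was left out, and *Itgax* lost its call without any of 5 mice (M_523, M_701, M_930, M_948 or M_958, adjusted p = 0.055 to 0.071). Without *BRAF*(+) AT mouse M_779, 6 members passed, which added *Adgre1*, *Csf1r*, *Mrc1* and *Lyz2*.

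PTC and BL were set against *BRAF*(-) AT, the thyroids with neither transgene RNA nor lesion. In PTC, 8 of the 10 members were past the threshold and higher, against 9.80% of all probe sets, and in BL 6 of 10, against 6.05%. The median difference over the members was 0.95 in PTC and 0.82 in BL, while the medians over all probe sets were both -0.02. Both comparisons use the same 5 *BRAF*(-) AT mice, and 2 of these were the males discussed below. Among females alone, 2 members passed in PTC (*Fcgr2b* and *Lyz2*) and 1 in BL (*Fcgr2b*). Without *BRAF*(-) AT mouse M_524, or without mouse M_771, 6 members passed in PTC and 3 in BL. With muscle and fat scores as covariates, *Fcgr2b* and *Itgax* kept their calls in both lesions, at 1.67 and 1.901 in PTC and 1.56 and 1.67 in BL.

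*Fcgr2b* had a lowest, median and highest value of 8.06, 8.91 and 9.36 in PTC and of 8.48, 8.83 and 9.72 in BL, against 6.90 to 7.90 in *BRAF*(-) AT. The differences were 1.52 in PTC (standard error 0.26, adjusted p = 0.00011) and 1.51 in BL (adjusted p = 0.00026). All 20 lesions therefore had more *Fcgr2b* signal than any *BRAF*(-) AT. *Itgax* had a lowest, median and highest value of 6.22, 7.38 and 8.21 in PTC and of 6.67, 7.06 and 8.07 in BL, against 5.12 to 6.46 in *BRAF*(-) AT. It was higher by 1.49 in PTC (standard error 0.32, adjusted p = 0.0015) and by 1.41 in BL (adjusted p = 0.0050), with 1 PTC inside the *BRAF*(-) AT range. Among females alone its differences were 0.88 (adjusted p = 0.076) in PTC and 0.80 (adjusted p = 0.145) in BL.

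*Lyz2* also stood apart in every lesion. It had a lowest, median and highest value of 11.50, 11.91 and 12.49 in PTC and of 11.35, 11.76 and 12.17 in BL, against 10.29, 10.51, 11.19, 10.98 and 11.12 in *BRAF*(-) AT. The differences were 1.07 in PTC (standard error 0.20, adjusted p = 0.00042) and 0.87 in BL (standard error 0.20, adjusted p = 0.0058). *Fcgr2b* and *Lyz2* were the 2 members without overlap in PTC, where 2.77% of all probe sets were higher without overlap, and *Itgax* joined them in BL, where 1.70% were. *Lyz1*, the neighbouring lysozyme gene of near-identical sequence, was higher by 1.44 in PTC (adjusted p = 0.028) and by 1.23 in BL (adjusted p = 0.080), and how far each probe set reads both genes was not tested. *Sftpa1* and *Sftpb*, which encode surfactant proteins of epithelium, averaged 11.17 and 12.66 in PTC and 10.82 and 12.31 in BL. In *BRAF*(-) AT they averaged 6.09 and 6.27. Of the other surfactant genes read, *Sftpd* also averaged higher in PTC and BL than in *BRAF*(-) AT. *Sftpc* went the other way, since it was low in every group and averaged lower in PTC and BL than in *BRAF*(-) AT. Whether epithelial cells add to the *Lyz2* signal was not tested.

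Of the scavenger and endocytic receptors, *Mrc1* averaged 9.06 ± 0.40 in PTC and 8.87 ± 0.36 in BL (SD, n = 10 each), against 7.88 ± 0.49 (SD, n = 5) in *BRAF*(-) AT, and was higher by 1.15 (adjusted p = 0.0037) and 0.96 (adjusted p = 0.022). *Msr1* averaged 6.89 ± 0.42 in PTC and 6.69 ± 0.50 in BL (SD, n = 10 each), against 6.09 ± 0.26 (SD, n = 5) in *BRAF*(-) AT, with differences of 0.75 (adjusted p = 0.0097) and 0.54 (adjusted p = 0.076). *Cd163* was at 5.30 to 6.48 in PTC and 5.00 to 6.72 in BL, against 5.52 to 6.26 in *BRAF*(-) AT, so that both lesion groups enclosed the *BRAF*(-) range. Its differences were 0.14 in PTC (95% confidence interval -0.29 to 0.56) and 0.26 in BL (-0.17 to 0.68). *Cd163* passed under 1 of 11 other settings in PTC (adjusted p = 0.043) and under 1 of 11 in BL (adjusted p = 0.040). Differences between these 3 receptors were not tested.

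Of the members commonly used to count macrophages as a whole, *Cd68* and *Adgre1* were higher in PTC by 0.97 (adjusted p = 0.0074) and 0.94 (adjusted p = 0.017) and in BL by 0.79 (adjusted p = 0.038) and 0.85 (adjusted p = 0.040). *Csf1r* was higher by 0.75 in PTC (adjusted p = 0.024), and its difference of 0.68 in BL had an adjusted p of 0.053. *C1qa* averaged 8.76 ± 0.55 in PTC and 8.67 ± 0.26 in BL (SD, n = 10 each), against 8.17 ± 0.68 (SD, n = 5) in *BRAF*(-) AT, with differences of 0.50 (adjusted p = 0.174) and 0.41 (adjusted p = 0.313). *C1qa* passed in PTC under 1 of 12 other settings (adjusted p = 0.038). Its partners in the C1q complex behaved alike, since *C1qb* and *C1qc* differed by 0.49 and 0.38 in PTC and passed in neither lesion group.

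**Figure D2:**
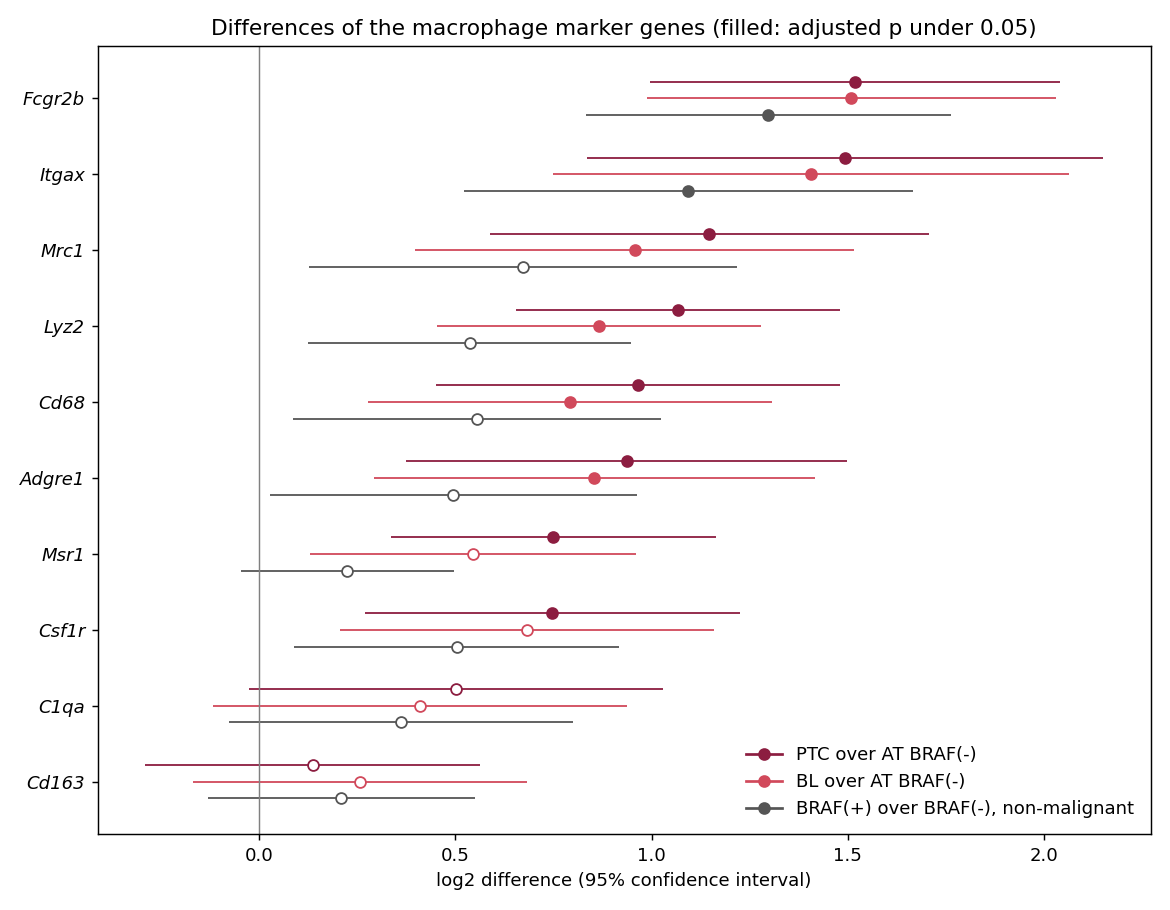
Log2 difference of each member with its 95% confidence interval, in PTC over AT *BRAF*(-), BL over AT *BRAF*(-), and *BRAF*(+) over *BRAF*(-) non-malignant thyroids; filled points have an adjusted p under 0.05. *Fcgr2b* and *Itgax* are the 2 genes filled in all 3 comparisons, and the intervals of *C1qa* and *Cd163* reach below 0 in each.

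Between the *BRAF*(+) groups 1 call was made over the 6 pairs. PTC over BL gave differences from -0.12 (*Cd163*) to 0.20 (*Msr1*), with 0 members and 0 probe sets past the threshold, and 0 members and 774 probe sets under 0.05 before adjustment. The confidence intervals of the members ran from -0.46 to 0.64. The sign turned under some alternatives for *Fcgr2b* and *Itgax*. Differences ran from -0.16 to 0.45 in PTC over *BRAF*(+) BHL (intervals from -0.73 to 1.15), from -0.26 to 0.36 in BL over *BRAF*(+) BHL (-0.82 to 1.07), from -0.10 to 0.58 in BL over *BRAF*(+) AT (-0.75 to 0.99) and from -0.46 to 0.74 in *BRAF*(+) BHL over *BRAF*(+) AT (-1.26 to 1.24). In these 4 pairs 0 members passed, beside 0%, 0%, 3.57% and 0.045% of all probe sets in either direction, and 0, 0, 1 and 1 members were under 0.05 before adjustment. The call was of *Msr1* in PTC over *BRAF*(+) AT. In *BRAF*(+) AT it was at 5.88, 5.72, 6.38, 6.30 and 6.28, against which PTC were higher by 0.78 (standard error 0.20, adjusted p = 0.011), with 9 of 10 PTC above all *BRAF*(+) AT. It was the 1 member called there, where 8.49% of all probe sets were higher, and the difference was 0.75 (adjusted p = 0.061) among females and 0.67 (adjusted p = 0.052) without *BRAF*(+) AT mouse M_779. *BRAF*(+) BHL likewise lay wholly above *BRAF*(+) AT for *Msr1*, as did 2.62% of all probe sets, with a difference of 0.74 that missed the threshold (adjusted p = 0.128).

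Taking the groups by their mean, the order of *Fcgr2b* was PTC, BL, *BRAF*(+) BHL, *BRAF*(+) AT, *BRAF*(-) BHL and *BRAF*(-) AT, with 8.92, 8.92, 8.87, 8.84, 7.61 and 7.40. The first 4 did not differ from one another by the test, nor did the last 2 (difference of BHL over AT in *BRAF*(-) mice 0.20, 95% confidence interval -0.43 to 0.84). For *Msr1* the order was PTC, *BRAF*(+) BHL, BL, *BRAF*(-) BHL, *BRAF*(+) AT and *BRAF*(-) AT, with 6.89, 6.84, 6.69, 6.29, 6.11 and 6.09. Against *BRAF*(-) BHL, PTC were higher for *Fcgr2b* (1.32, adjusted p = 0.0015), *Itgax* (1.21, adjusted p = 0.019) and *Lyz2* (0.75, adjusted p = 0.021), or 3 of 10 members beside 6.02% of all probe sets, of which *Fcgr2b* alone passed among females or without *BRAF*(-) BHL mouse M_701 or M_930. BL were higher for *Fcgr2b* alone (1.31, adjusted p = 0.0034, beside 2.46%), which was at 0.95 (adjusted p = 0.054) without mouse M_701, 0.84 (adjusted p = 0.065) among females and 1.42 (adjusted p = 0.0503) with muscle and fat scores. *BRAF*(+) BHL over *BRAF*(-) AT gave *Fcgr2b* (1.47, adjusted p = 0.0027) and *Mrc1* (1.18, adjusted p = 0.025), or 2 of 10 members beside 3.71% of all probe sets. The call of *Mrc1* was lost among females (0.76, adjusted p = 0.333), with muscle and fat scores (1.38, adjusted p = 0.078) and without any of 5 mice (M_524, M_771, M_940, M_943 or M_958). Those groups were without overlap for 6 members, beside 4.34% of all probe sets, namely *Csf1r*, *Fcgr2b*, *Itgax*, *Mrc1*, *Lyz2* and *Msr1*.

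Part of the spread among *BRAF*(-) mice followed sex. The 3 *BRAF*(-) males, 2 AT and 1 BHL, were lower than all 6 *BRAF*(-) females for 8 of the 10 members, as was the case for 2.56% of all probe sets. *Adgre1* was at 5.97, 6.26 and 6.22 in these males, against 7.64, 7.52, 7.58, 7.79, 7.11 and 7.96 in *BRAF*(-) females, a gap of 0.86 between the nearest mice. The mean over members of the deviation from each gene's overall mean was -1.20, -1.13 and -1.23 in *BRAF*(-) males and -0.46 to 0.15 in *BRAF*(-) females. Other scores set the same mice apart. The pan-leukocyte score lay between -1.60 and -1.33 in *BRAF*(-) males and between -0.81 and 1.23 in *BRAF*(-) females, the dendritic cell score between -0.64 and -0.35 in males and between -0.23 and 0.24 in females, and the fibroblast score between -0.44 and -0.38 in males and between -0.02 and 0.22 in females. The thyroid follicular cell score was higher in these males, at 0.59 to 0.66, than in these females, at -0.09 to 0.51. The part of these lists in the difference was not tested. The males were also younger, at 4 to 10 months against 11 to 24 months in *BRAF*(-) females, so that sex and age cannot be told apart in them.

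A model with a separate sex difference for each *BRAF* status, added after these values were seen, gave *Adgre1* as 1.44 lower in *BRAF*(-) males than in *BRAF*(-) females (standard error 0.29, adjusted p = 0.032). It was the 1 member called, where 0.0394% of all probe sets were lower. With any of the 3 males left out the difference stayed between -1.36 and -1.51 but did not pass (adjusted p = 0.113 to 0.202), nor did it without *BRAF*(-) AT females M_940, M_956 or M_957 (adjusted p = 0.056 to 0.075). *Csf1r* and *Lyz2* were 1.07 and 0.90 lower with adjusted p of 0.090 and 0.089. In *BRAF*(+) mice 0 members were called by sex, beside 1.63% of all probe sets higher and 1.44% lower in males, and the 6 males, aged 4 to 11 months, averaged 7.94 ± 0.54 for *Adgre1* and the 23 females 7.88 ± 0.41 (SD). The test of the difference itself, that is of the *BRAF* effect in males minus that in females, called 0 of 10 members beside 0.0422% of all probe sets higher. It was 1.51 for *Adgre1* (adjusted p = 0.063), 1.73 for *Itgax* (adjusted p = 0.075), 1.37 for *Fcgr2b* (adjusted p = 0.076) and 0.25 for *Msr1* (adjusted p = 0.972).

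**Figure D3:**
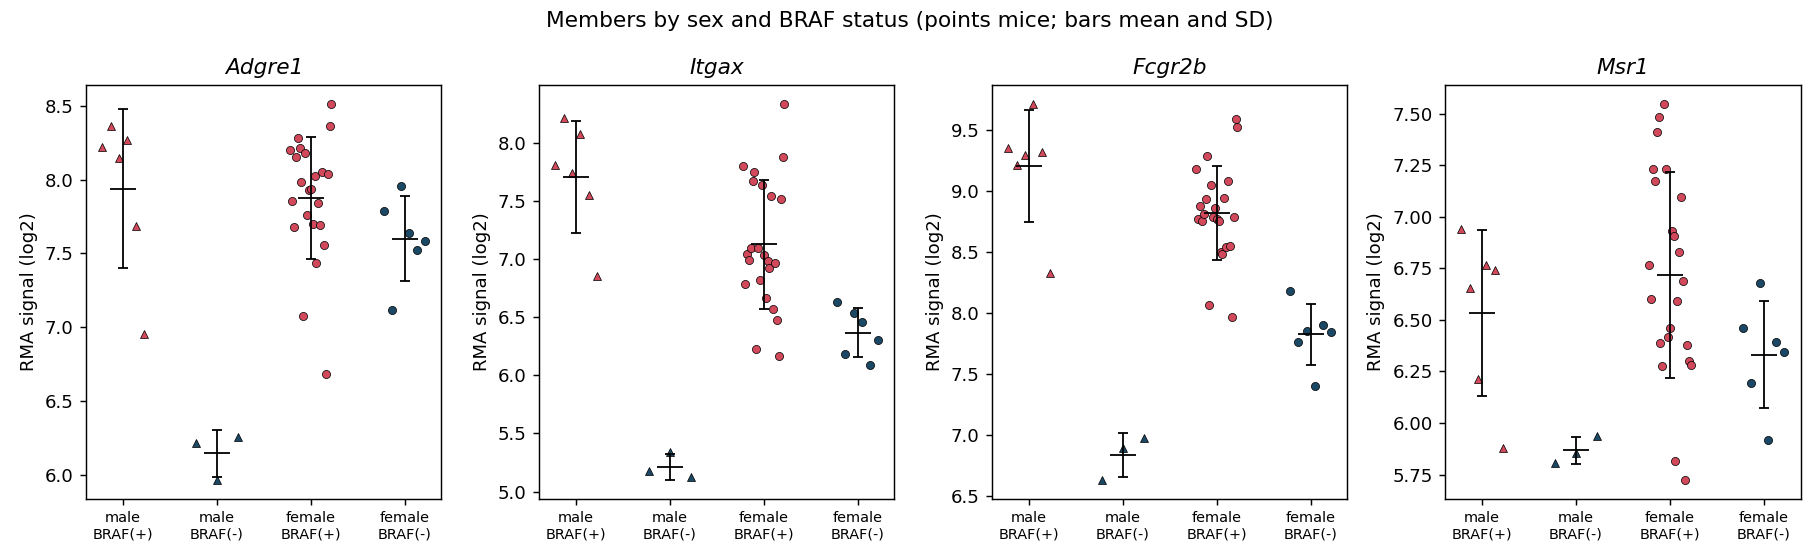
Log2 RMA signal of *Adgre1*, *Itgax*, *Fcgr2b* and *Msr1* in every mouse by sex and *BRAF* status, with mean and SD. The 3 *BRAF*(-) males lie below all 6 *BRAF*(-) females for *Adgre1*, *Itgax* and *Fcgr2b*, and inside their range for *Msr1* in 1 case.

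The single mice that departed from their groups did so in most members at once. Among *BRAF*(+) AT, female M_779, aged 7 months, had the lowest signal for 9 of the members, and male M_523, aged 10 months, was the next lowest or the lowest for 9. In *BRAF*(-) BHL, male M_701 was lowest for all 10. In PTC, female M_1002, aged 21 months, was lowest for 9 members and highest for the remaining member, *Lyz2*, where it had 12.49. Its *Lyz1* signal of 11.80 was the highest PTC value too. This mouse had the highest skeletal muscle score of the PTC (2.68) and the lowest pan-leukocyte (-0.80), fibroblast (-0.53), endothelial (-0.65) and thyroid follicular cell (-0.84) scores, whose part in its values was not tested. A BL female of the same age, mouse M_1005, was neither the lowest nor the highest of its group for any member, with 7.84 for *Adgre1* and 11.86 for *Lyz2*.

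The members were also compared mouse by mouse, after taking each mouse's deviation from its group mean, over the 38 mice. These correlations are descriptions, because all genes of a mouse share 1 array and 1 piece of tissue. *Adgre1* and *Csf1r* were the closest pair (r = 0.94), followed by *Cd68* and *C1qa* (0.90) and *Fcgr2b* and *Itgax* (0.90). *Adgre1* had the highest correlation with the mean of the other members (0.94), and *Msr1* (0.46) and *Cd163* (0.29) the lowest. *Msr1* and *Cd163* were themselves slightly opposed (-0.15). Within the 10 PTC alone, *Lyz2* was opposed to every other member, with r from -0.61 (*Mrc1*) to -0.11 (*Msr1*). These PTC include mouse M_1002, which was lowest for 9 members and highest for *Lyz2*. How far the opposition rests on this 1 mouse was not tested. Within the 10 BL its r ran from -0.29 (*Msr1*) to 0.87 (*Itgax*).

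**Figure D4:**
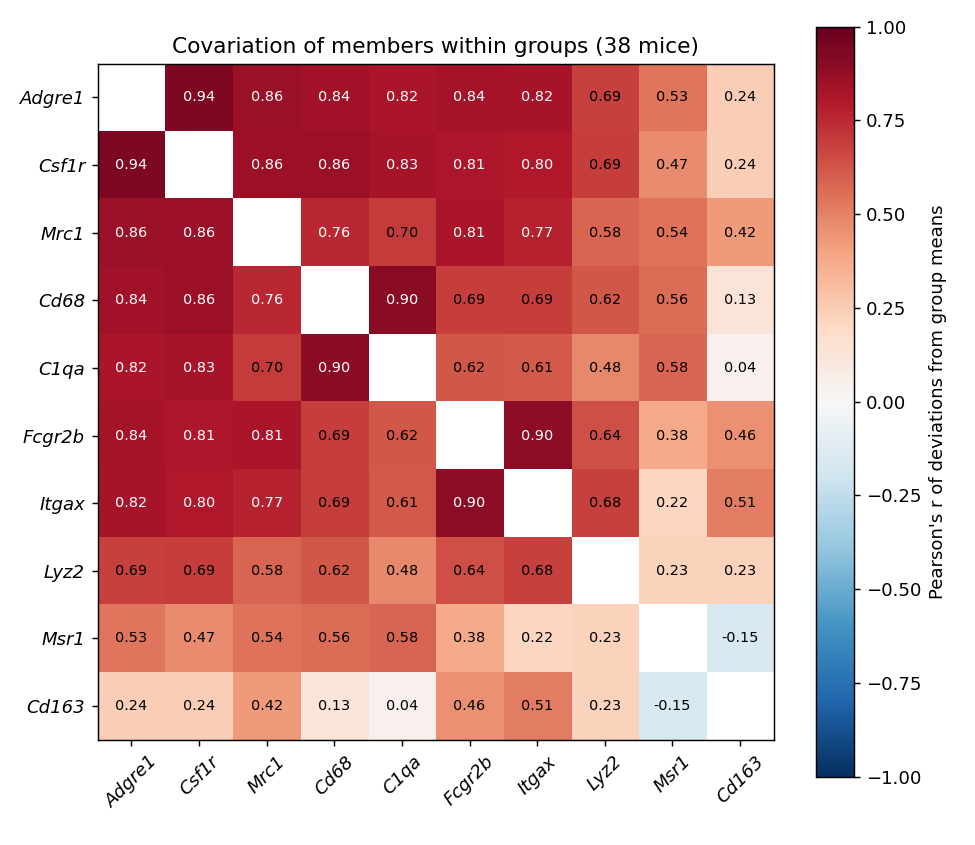
Pearson's r between members, computed on deviations from group means over 38 mice and coloured from -1 to 1. *Adgre1*, *Csf1r*, *Mrc1*, *Cd68*, *C1qa*, *Fcgr2b* and *Itgax* form a block with r of at least 0.61, while *Lyz2*, *Msr1* and *Cd163* follow it less closely.

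Outside the 10, the genes that followed their mean most closely were *Fcer1g* and *Tyrobp*, the signalling adaptors of Fc and other myeloid receptors, both with r of 0.91. Next came *P2ry6*, a nucleotide receptor, *Ctss*, the endosomal protease cathepsin S, *Plek*, which encodes pleckstrin, *Cldn1*, *Ms4a6d* and *Vsir*, with r of 0.91 to 0.90. *Cldn1* is best known as a tight junction gene of epithelia, and which cells gave its signal was not tested. Of single members, *Itgax* was nearest to *Alox5ap*, the activating protein of leukotriene synthesis (0.94), *C1qa* to *C1qc* (0.94), *Cd68* to *Fcer1g* (0.90), *Adgre1* to *Wfdc17* (0.89) and *Csf1r* to *Unc93b1* (0.90). *Fcgr2b* was nearest to *Ms4a6d* (0.90), *Mrc1* to *Clec4a3* (0.88), *Msr1* to *Tfec* (0.84), *Cd163* to *Fmo1* (0.84) and *Lyz2* to *Ctss* (0.74). The score of 25 other macrophage and monocyte genes had an r of 0.96 with the mean of the 10 members, and that of pan-leukocyte genes 0.87. Dendritic cell, T cell and fibroblast scores were at 0.51, 0.49 and 0.49. Those of brown adipocyte, neutrophil, B cell, mast cell, adipocyte, muscle, endothelial, parathyroid and thyroid follicular cell genes lay between -0.18 (follicular cell) and 0.22 (brown adipocyte).

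The members were set beside a wider list of macrophage genes. Of the 25 other macrophage and monocyte genes, 0 were higher and 1 was lower in *BRAF*(+) non-malignant thyroids, beside 2.19% and 1.91% of all probe sets, and their median difference was 0.21. The lower gene was *Vsig4*, the complement receptor of resident macrophages, at 5.35 ± 0.68 in *BRAF*(+) and 6.06 ± 0.58 in *BRAF*(-) mice (SD, n = 9 each), a difference of -0.79 (adjusted p = 0.021). In PTC over *BRAF*(-) AT 8 of these 25 genes were higher and 0 lower, beside 9.80% and 9.01% of all probe sets, among them *Ctss* (1.28), *Tyrobp* (1.01), *Fcgr3* (0.91), the activating low-affinity Fc receptor, and *Itgam* (0.89), the CD11b subunit. *Fcgr1*, the high-affinity receptor, differed by 0.48 (adjusted p = 0.042). In non-malignant thyroids *Fcgr3* and *Fcgr1* differed by 0.68 and 0.30 (adjusted p = 0.077 and 0.396), beside 1.30 for *Fcgr2b*.

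Ligands, receptors and regulators of the lineage came next. The CSF1R ligands *Csf1* and *Il34* differed by 0.32 and 0.13 in non-malignant thyroids (adjusted p = 0.212 and 0.720) and by 0.40 and 0.38 in PTC over *BRAF*(-) AT (adjusted p = 0.068 and 0.099). *Csf2*, the cytokine GM-CSF, *Csf2ra*, its receptor's specific chain, and *Csf2rb*, the signalling chain, were higher in *BRAF*(+) non-malignant thyroids by 0.47 (adjusted p = 0.038), 0.67 (adjusted p = 0.012) and 1.11 (adjusted p = 0.015). The *Csf2* signal, at 3.33 to 4.78 over all mice, lay in the low range that RMA compresses. *Csf2rb* had a lowest, median and highest value of 7.26, 8.29 and 8.72 in PTC and 7.69, 8.26 and 9.28 in BL, against 6.32, 6.62 and 7.15 in *BRAF*(-) AT, without overlap. *Runx1*, a haematopoietic transcription factor that epithelial tumours also express, was higher by 1.34 (adjusted p = 0.0025), and *Spi1*, which encodes PU.1, differed by 0.66 (adjusted p = 0.145). In all, 4 of the 11 genes of this list were higher in *BRAF*(+) non-malignant thyroids and 0 lower, beside 2.19% and 1.91% of all probe sets, and in PTC over *BRAF*(-) AT 6 were higher and 1 (*Maf*) lower, beside 9.80% and 9.01%.

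Most genes linked to macrophage activation did not pass. Of 9 alternative activation genes, 3 were higher in *BRAF*(+) non-malignant thyroids, where 2.19% of all probe sets were, namely *Ccl17*, a chemokine for CCR4-bearing T cells (1.64, adjusted p = 0.040), *Mgl2*, a galactose lectin (1.02, adjusted p = 0.00071), and *Il4ra*, the IL-4 receptor (0.87, adjusted p = 0.0012). All 9 *BRAF*(+) mice had more *Mgl2* signal than all 9 *BRAF*(-) mice, which held for 0.208% of all probe sets. Of 9 classical activation genes, 2 were higher, *Ptgs2*, the inducible cyclooxygenase (0.76, adjusted p = 0.046), and *Il1b* (0.75, adjusted p = 0.013). In these lists *Chil3* averaged 3.81, *Il10* 3.54 and *Il6* 3.18 over all mice, near the lower end of the array scale. Among 7 chemokines that attract monocytes, *Ccl7* (0.70, adjusted p = 0.042) and *Cx3cl1* (0.52, adjusted p = 0.018) were higher, against the same 2.19%. Of 12 lysosome and phagosome genes 0 passed, with a median of 0.11.

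Markers of other leukocytes were examined because they share some of the 10 genes. *Cd53*, a tetraspanin of all leukocytes, was the 1 of 7 pan-leukocyte genes past the threshold in non-malignant thyroids, beside 2.19% of all probe sets (1.22, adjusted p = 0.034), and *Ptprc*, which encodes CD45, differed by 0.68 (adjusted p = 0.361). *Cd209a*, a lectin of monocyte-derived dendritic cells, was the 1 of 7 dendritic cell genes, beside the same share (1.33, adjusted p = 0.018). None of 8 neutrophil, 6 mast cell, 7 T cell and 5 B cell genes passed. The dendritic cell score lay between -0.64 and 0.65 in *BRAF*(+) and between -0.64 and 0.24 in *BRAF*(-) mice, and the B cell score between -0.37 and 0.32 in *BRAF*(+) and between -0.34 and 1.16 in *BRAF*(-) mice. The T cell score lay between -0.65 and 0.74 in *BRAF*(+) and reached 3.27 in 1 *BRAF*(-) BHL. Their part in the differences of *Itgax* and *Fcgr2b* was not tested.

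**Figure D5:**
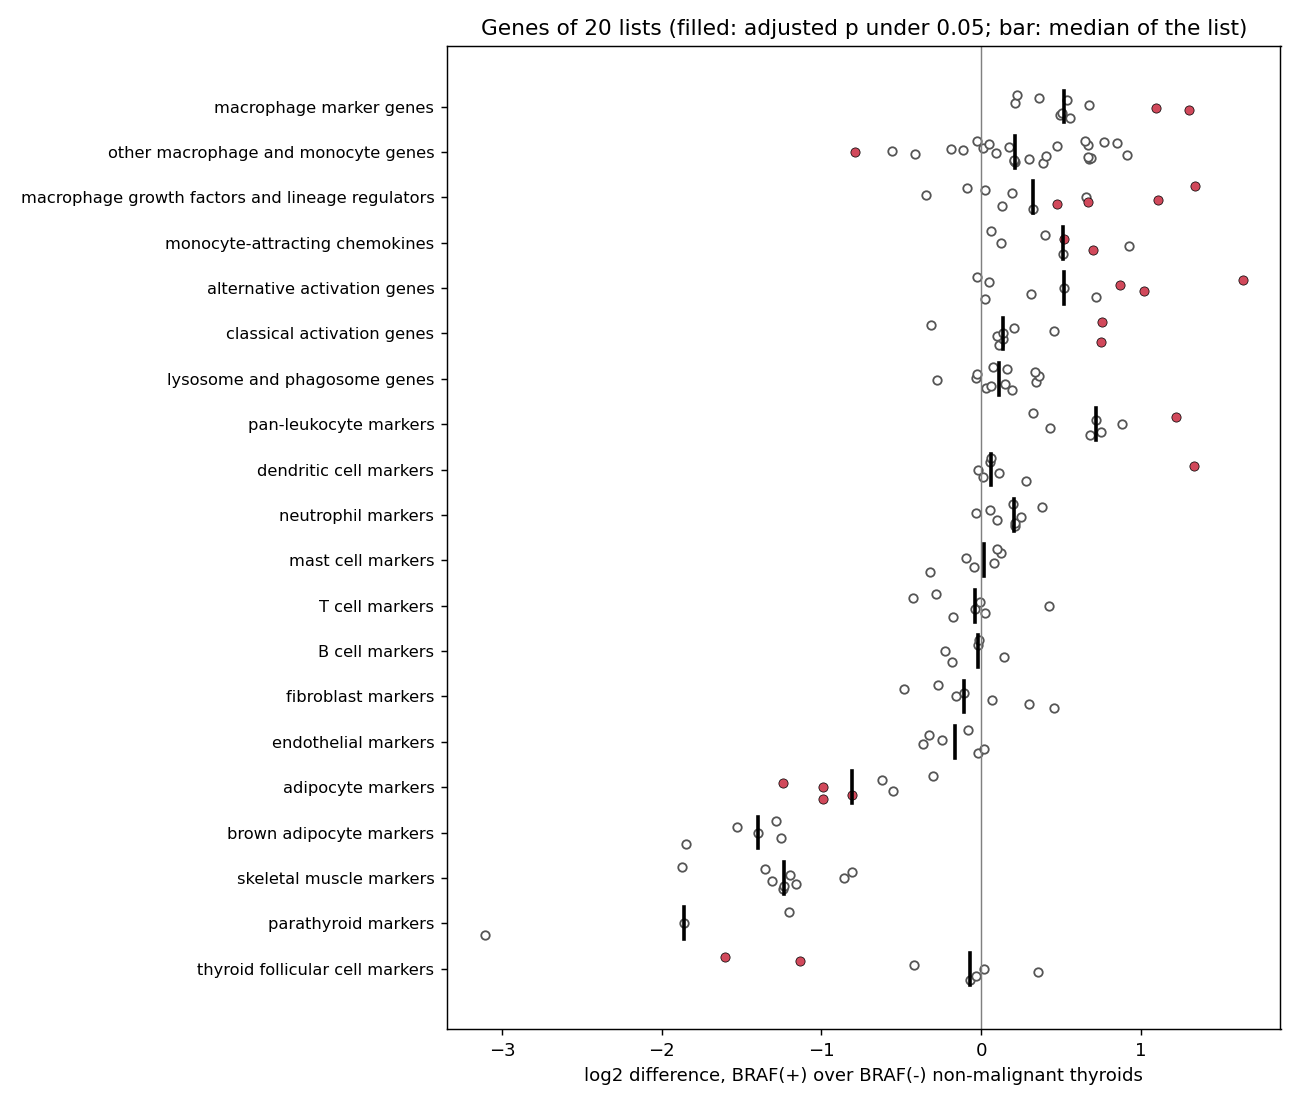
Log2 difference of *BRAF*(+) over *BRAF*(-) non-malignant thyroids for every gene of the 10 markers and of 19 other lists, with filled points for an adjusted p under 0.05 and a bar at the median of each list. All 10 macrophage markers lie right of 0 with a median of 0.52, and adipocyte, brown adipocyte, skeletal muscle and parathyroid genes all lie left of it.

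Genes of other cells of the gland and its surroundings were examined last. Among adipocyte genes 4 of 7 were lower in *BRAF*(+) non-malignant thyroids, beside 1.91% of all probe sets, namely *Retn* (-1.24), *Adipoq* (-0.99), *Cidec* (-0.99) and *Plin1* (-0.81). Brown adipocyte, skeletal muscle and parathyroid genes had medians of -1.40, -1.24 and -1.86 with 0 past the threshold. Of 7 thyroid follicular cell genes, *Dio1* (-1.61, adjusted p = 0.023) and *Slc5a5* (-1.13, adjusted p = 0.031) were lower, and *Tg* differed by -0.07 (adjusted p = 0.534). None of the 7 fibroblast and 6 endothelial genes passed. Their part in the differences of the macrophage markers was not tested, apart from the fit with muscle and fat scores given above.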

How the data were processed

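Thyroid RNA of 38 mice was hybridised to Affymetrix whole-transcript gene arrays, 1 array per mouse. The log2 signals of 35556 probe sets were deposited by the authors after RMA, whose software version is not stated in the sources used here. RMA compresses low signals, and the number of mice limits the precision. The labels name an amplification kit made for 3' arrays. Gene names came from the platform annotation, and 7 genes of the comparison lists had no probe set of their own and were left out. Columns of other series used: 0.

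Groups were taken from the labels. Fits used limma 3.58.1 in R 4.3.3 (lmFit, eBayes) on all 35556 probe sets: *BRAF* status, lesion and sex over the 18 non-malignant mice, the same with an interaction, and 6 groups and sex over all 38 mice. Mice are taken as separate animals from their numbers, and the p-values measure the spread between them. The members and lists were chosen with earlier results of these data known. Besides the members, genes were named by a rule: from each list up to 4 genes with the largest difference past the threshold in non-malignant thyroids (or, where none passed, up to 2 with the highest mean), fixed partners such as *Csf1*, *Il34*, *Spi1*, *Ptprc*, *C1qb* and *Lyz1*, and the nearest genes by correlation; *Maf*, *Chil3*, *Il10*, *Il6*, *Pax8* and genes named for PTC alone were chosen after their values were seen, as were the model with *BRAF* status and sex and the alternatives for PTC over *BRAF*(+) AT, PTC over *BRAF*(-) BHL and BL over *BRAF*(-) BHL. Likeness was Pearson's r of deviations from group means over 19928 other genes. Alternatives were the study's filter for flat probe sets (1.5-fold from the median in 20% of mice, which kept 4388 probe sets and 7 members), leaving out the lowest 25% of probe sets, centring, quantile normalization, a variance trend, array weights, an unmoderated model, age, no sex, muscle and fat scores, females only, without the transgenic *BRAF*(-) mouse, and each mouse left out in turn. The flat filter was not used in the main fit, since it removes *Csf1r*, *Cd163* and *Lyz2*. The fits were checked on simulated data. Promoters came from RefSeq on GRCm38.p6. Figures were drawn with matplotlib 3.10.9 in Python 3.11.15.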

Additional observations from a re-analysis of the deposited data

Results flagged for a closer look

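In groups of 4 to 10 mice, a value was singled out when its gap to the next was large for the range of the group (Dixon's criterion at 95%). Of 60 sets of values, the 10 members in each of 6 groups, 3 were singled out, where chance alone gives about 1 in 20. All 3 belong to the same PTC, mouse M_1002, a female aged 21 months. Its signal was 7.08 for *Adgre1*, with the next PTC at 7.68, 8.06 for *Fcgr2b*, with the next at 8.75, and 8.01 for *Mrc1*, with the next at 8.96. It also had the highest skeletal muscle score of the PTC (2.68) and the lowest pan-leukocyte (-0.80), fibroblast (-0.53), endothelial (-0.65) and thyroid follicular cell (-0.84) scores. Leaving this mouse out changed no call of PTC over *BRAF*(-) AT, where 8 members still passed.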

How the results depend on the processing

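No paired analysis was possible because mouse numbers are not shared between groups. Among females, 1 member was called for *BRAF* status in non-malignant thyroids, 2 in PTC over *BRAF*(-) AT, 1 in BL over *BRAF*(-) AT, 1 in *BRAF*(+) BHL over *BRAF*(-) AT, 1 in PTC over *BRAF*(-) BHL and 0 in *BRAF*(+) over *BRAF*(-) AT, *BRAF*(+) over *BRAF*(-) BHL, PTC over *BRAF*(+) AT and BL over *BRAF*(-) BHL. Fewer mice enter these fits. With muscle and fat scores, 8 were called in PTC over *BRAF*(-) AT, 4 in BL over *BRAF*(-) AT and 1 in *BRAF*(+) BHL over *BRAF*(-) AT. With the same scores 0 were called for *BRAF* status, *BRAF*(+) over *BRAF*(-) AT, *BRAF*(+) over *BRAF*(-) BHL and PTC over *BRAF*(+) AT. Array weights gave 5 members for *BRAF* status, 4 in *BRAF*(+) over *BRAF*(-) AT and 2 in BL over *BRAF*(-) BHL. The flat filter, by which fewer genes are tested, gave 4 members in *BRAF*(+) BHL over *BRAF*(-) AT and 2 each in *BRAF*(+) over *BRAF*(-) AT and BL over *BRAF*(-) BHL. BL over *BRAF*(-) BHL also had 2 without the lowest 25% of probe sets or without the transgenic *BRAF*(-) mouse. The unmoderated model called 1 for *BRAF* status. With each mouse left out in turn, counts ran from 1 to 6 for *BRAF* status, 6 to 8 in PTC and 3 to 8 in BL over *BRAF*(-) AT, 1 to 2 in *BRAF*(+) BHL over *BRAF*(-) AT, 0 to 3 in *BRAF*(+) over *BRAF*(-) AT, 0 to 1 in *BRAF*(+) over *BRAF*(-) BHL and in PTC over *BRAF*(+) AT, 1 to 4 in PTC over *BRAF*(-) BHL and 0 to 2 in BL over *BRAF*(-) BHL. PTC over BL gave 0 members under every alternative run. *Fcgr2b*, *Itgax* and *Lyz2* kept their calls in PTC and in BL over *BRAF*(-) AT in all 15 of these fits, *Cd68* in BL lost its call in 8 of 15 and *Adgre1* in BL in 6 of 15. Where no cause is given, the cause was not tested.

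In PTC over *BRAF*(+) AT, PTC over *BRAF*(-) BHL and BL over *BRAF*(-) BHL, only the called members were followed singly. Pairs of groups not named in this section had no alternatives. Among the differences followed, the sign turned only for members that were not called. These were *Cd163* in *BRAF*(+) BHL over *BRAF*(-) AT (-0.00125 after quantile normalization, -0.27 among females, -0.17 to 0.26 with each mouse left out), *Msr1* in *BRAF*(+) over *BRAF*(-) AT (0.0219 with array weights, 0.0222 without sex, -0.11 to 0.0771 with each mouse left out), and *Cd68* (-0.0372), *Cd163* (-0.0502) and *Lyz2* (-0.0859) in *BRAF*(+) over *BRAF*(-) BHL among females, with *Cd68* at -0.0391 to 0.55 with each mouse left out. In PTC over BL they were *Fcgr2b* (-0.00257 after quantile normalization, -0.049 with array weights, -0.0451 to 0.11 with each mouse left out) and *Itgax* (-0.013 to 0.21 with each mouse left out).

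Of all probe sets, 1458 were called for *BRAF* status, against 882 among females, 883 after the flat filter, 911 with age and 10 with muscle and fat scores. In PTC over *BRAF*(-) AT 6686 were called, against 3756 among females, 1732 after the flat filter and 2558 with muscle and fat scores, and in BL 4075, against 1887, 1431 and 1093. In *BRAF*(+) over *BRAF*(-) AT 91 were called, against 452 with array weights, 170 after the flat filter and 52 among females. Each member has 1 probe set, so other probe sets could not be tried. In *BRAF*(+) BHL over *BRAF*(-) AT 2597 were called, against 1135 after the flat filter and 490 with muscle and fat scores, in *BRAF*(+) over *BRAF*(-) BHL 2353, against 1061 and 83, and in PTC over *BRAF*(+) AT 5309, against 1247 and 2210, with 2651 among females. PTC over *BRAF*(-) BHL had 4087, against 1443 after the flat filter, 287 with muscle and fat scores and 2640 among females, and BL over *BRAF*(-) BHL 1762, against 937 after the flat filter and 76 with muscle and fat scores, and 2.67% of all probe sets among females against 4.96% in all mice.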
